A study of Mus musculus with 18 samples.

Results

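The 10 genes described here are immediate early genes: the zinc finger factors Egr1, Egr2 and Egr3, the orphan nuclear receptors Nr4a1, Nr4a2 and Nr4a3, the immediate early response genes Ier2, Ier3 and Ier5, and Myc. They are a list of gene names, not a selection by a measured value, and the list was drawn up with earlier results of these data known. For each of them, every open chromatin element in the gene body and within 50000 bp of its most upstream annotated start site (GENCODE M21, mm10) was taken from 3 lists of accessible sites in mouse macrophages. This gave 183 of 82391 reference peaks, 191 of 84660 summits (the points of highest signal within peaks) and 100 of 59617 extended regions (neighbouring peaks joined and widened by the authors). No extended region fell in the loci of more than 1 of these genes.

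The elements had been mapped by ATAC-seq, in which the Tn5 transposase inserts adapters into exposed DNA. The cells were bone marrow-derived macrophages (BMDMs) grown from wild type male C57/BL6 mice aged 6 to 8 weeks. All cells first received the solvent DMSO for 1 h and were then left untreated, given the bacterial Toll-like receptor 4 ligand LPS at 10 ng/mL, or given the cytokine IL-4 at 10 ng/mL, with collection of the stimulated cells at 30 min, 1 h, 2 h or 4 h. The 18 libraries formed 9 groups of 2, of which 4 had received LPS, 4 had received IL-4 and 1 was unstimulated.

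The 3 lists are pooled over all 18 libraries and hold no value per library. Hence no untreated, LPS or IL-4 level, no replicate error, no depth per sample and no test of a stimulus can be given for these genes, and every value below describes the single pooled catalog. The only measurement is a whole-number score attached to each summit. Its scale is not stated, it takes only 219 distinct values over 84660 summits (from 102 to 2781, median 737), and it was used here only to rank summits.

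As background, immediate early genes are switched on by signals within minutes, without the need for new protein synthesis. Growth factors, stress and Toll-like receptor ligands reach them through MAP kinases and, for part of them, through cAMP signalling and NF-kB. Their promoters classically bind serum response factor (SRF) at the CArG box, alongside ETS partners, and CREB at the cAMP response element (CRE). EGR proteins bind a GC-rich site, NR4A proteins bind as monomers to a site called NBRE, and Myc with its partner Max binds the E-box. Most of their products are transcription factors or regulators that shape the later waves of a macrophage response.

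The stretches upstream of the start sites are shown first, because the classical sites named above were looked for there. The RefSeq promoter set (assembly GRCm38.p6, which has the coordinates of mm10) contained 6 of the 10 genes: Egr2, Nr4a1, Nr4a2, Nr4a3, Ier3 and Ier5. Bases annotated as exon in GENCODE M21 were left off. In the 3 NR4A promoters, capitals mark the CRE core, TGACG or its complement CGTCA. In Egr2, capitals mark the CArG box and the CRE cores, and in Ier3 they mark the NF-kB site. All are written 5′ to 3′ on the strand of the gene and end at the base before the GENCODE start site.
Nr4a1, chr15:101266596-101266845, plus strand: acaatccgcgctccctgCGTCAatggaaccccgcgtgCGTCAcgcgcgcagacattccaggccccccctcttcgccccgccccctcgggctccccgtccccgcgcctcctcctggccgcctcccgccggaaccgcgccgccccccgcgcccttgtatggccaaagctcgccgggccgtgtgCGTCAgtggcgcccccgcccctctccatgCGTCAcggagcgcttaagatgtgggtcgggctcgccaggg
Nr4a2, chr2:57124004-57124253, minus strand: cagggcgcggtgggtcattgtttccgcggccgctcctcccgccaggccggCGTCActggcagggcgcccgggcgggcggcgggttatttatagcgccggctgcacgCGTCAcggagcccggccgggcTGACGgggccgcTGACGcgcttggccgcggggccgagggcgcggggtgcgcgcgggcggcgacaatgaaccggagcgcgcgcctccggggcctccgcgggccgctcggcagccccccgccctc
Nr4a3, chr4:48045055-48045152, plus strand: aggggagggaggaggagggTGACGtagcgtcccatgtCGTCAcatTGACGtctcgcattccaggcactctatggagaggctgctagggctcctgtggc
Egr2, chr10:67537619-67537868, plus strand: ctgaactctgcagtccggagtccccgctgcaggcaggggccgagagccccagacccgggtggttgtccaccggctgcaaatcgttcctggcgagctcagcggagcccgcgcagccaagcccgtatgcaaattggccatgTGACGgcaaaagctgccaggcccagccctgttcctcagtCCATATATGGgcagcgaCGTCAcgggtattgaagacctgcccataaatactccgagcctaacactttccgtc
Ier3, chr17:35821463-35821683, plus strand: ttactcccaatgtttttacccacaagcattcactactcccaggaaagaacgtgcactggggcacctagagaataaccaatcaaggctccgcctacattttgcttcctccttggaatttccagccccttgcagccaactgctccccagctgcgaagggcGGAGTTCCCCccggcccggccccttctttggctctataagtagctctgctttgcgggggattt

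Each RefSeq window of Nr4a1, Nr4a2 and Nr4a3 held 4 CRE cores. Of all 32851 promoter windows of that length, 20.8% held at least 1 core and 0.231% held 4 or more. At least 1 core was in a window of 4 of the 6 genes, the NR4A genes and Egr2, against 23.0% of 27025 genes. Not every window of Egr2 had one. Ier3 and Ier5 had none, and Ier5, which had no CArG box or NF-kB match either, is not printed. In Nr4a1 the cores began 233, 213, 69 and 40 bp before the start site, and all 4 were written on the strand opposite to the gene. In Nr4a2 they began 200, 144, 123 and 111 bp before it, in both orientations. In Nr4a3 the 3 cores of the printed stretch began 79, 61 and 53 bp before the start site, and the fourth of its window lay downstream of the GENCODE start and is not shown. The full palindrome TGACGTCA was in no window of the 6 genes, against 1.79% of all windows.

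The promoter of Egr2 carried a CArG box, CCATATATGG, 72 bp before the start site, with CRE cores that began 111 and 55 bp before it. The CArG box was present in 1.63% of all promoter windows and, of the 6 genes, only in Egr2. The NF-kB match of Ier3, GGAGTTCCCC, began 63 bp before the start site, and 4.51% of all windows held such a match. Of the 6 genes, Nr4a1 also had an NF-kB match, which ran over its start site and is not marked. A match is a stretch of letters and was not tested for binding.

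**Figure D1:**
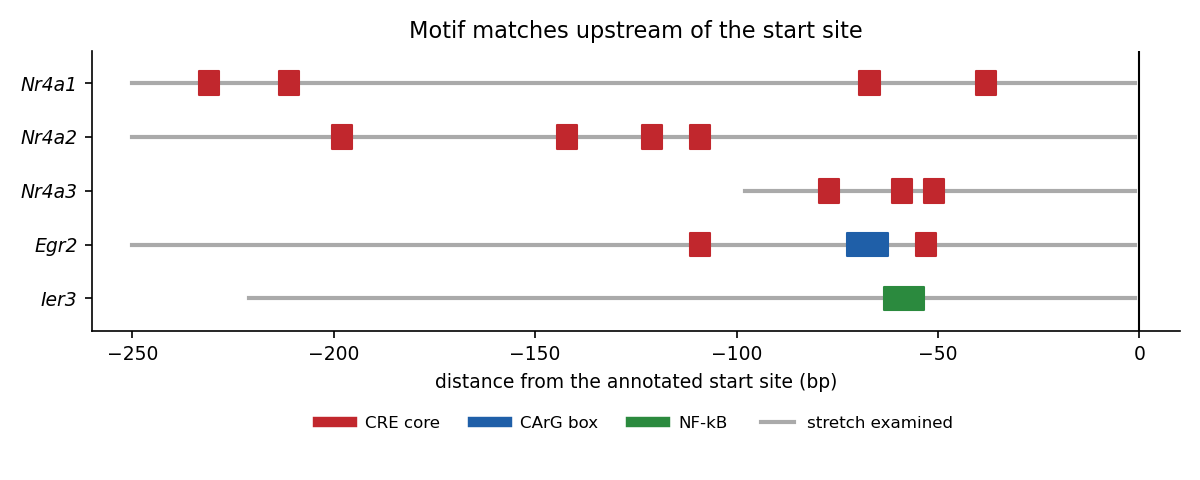
Positions of CRE core (red), CArG box (blue) and NF-kB (green) matches in the printed stretches upstream of 5 genes, in bp from the annotated start site (black line). Grey lines span the bases examined. Nr4a1 and Nr4a2 show 4 CRE cores each and Nr4a3 shows 3 in a stretch of 98 bp, while the blue box in Egr2 lies between its 2 cores.

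All 10 genes had a reference peak within 1000 bp of an annotated start site, against 56.5% of 21938 protein-coding genes. The start sites of all 10 were CpG-rich at 1 or more positions (at least 55% G and C and an observed to expected CpG ratio of at least 0.65 in the 500 bp on each side), against 42.3% of protein-coding genes. The best start site summit of all 10 lay in the top 25% of all summits, against 69.4% of the 12321 protein-coding genes with a start site summit. The best scores ran from 1308 at Egr2 to 1773 at Ier2, with a median of 1486.5 against 1456 for those 12321 genes. Thus the promoters of these genes ranked near the middle of open promoters: 7 of 10 were above the median, and none reached the upper quartile of 1799. This depended on the window. With 2500 bp on each side, Nr4a3, Ier2 and Ier3 were above the upper quartile, which stayed at 1799, and the median of the 10 genes was 1695.5 against 1456. The summit that raised Ier3, scored 1890, lay 168 bp from the start of the neighbouring gene Flot1 and 1378 bp from that of Ier3.

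The extended region over the start site was wide at most of these genes. Such a region joins separate peaks and the padding and gaps between them, so its width is not the width of open chromatin. One wider than 3306 bp, the 95th percentile of all regions, covered a start site summit at 7 of the 10 genes, against 14.1% of protein-coding genes with such a summit. These were Myc, Ier2, Egr2, Ier5, Nr4a3, Ier3 and Egr1, in order of width. Reference peaks covered 25.3% of the region of Myc (1899 of 7519 bp), 1588 of 6610 bp at Ier2 and 46.1% of the region of Egr1, and the region of Ier3 also took in the start site peak of Flot1. The exceptions were Egr3, Nr4a1 and Nr4a2. At least 2 start site summits were present at 6 genes, against 55.0% of those protein-coding genes, so that on this measure the genes did not stand apart.

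Summits away from start sites outscored the gene's own start site summits at most of these genes, though how many depended on the window. This is not a ranking of the whole locus, since at Egr3 and Ier3 the highest summit lay at the start site of another gene. At 8 of the 10 genes the best summit over 1000 bp from any annotated start site scored above the best summit at the gene's own start sites, against 39.6% of 11573 protein-coding genes with both kinds. Among the 9211 of those genes with at least 3 summits away from start sites, the lowest number at any of the 10 genes, the share was 45.3%. The comparison was chosen after the values had been seen. The exceptions were Nr4a2 and Ier5. With a start site window of 2500 bp in place of 1000 bp, 5 of the 10 genes remained, against 35.5% of protein-coding genes and 42.6% of those with at least 3 summits away from start sites, and Nr4a3, Ier2 and Ier3 were lost. The count at this window was thus closer to the share over protein-coding genes. The median of the 10 best scores away from start sites was 1857.5, against 1284 for the 11573 genes, whose upper quartile was 1619, and 1394 for the 9211 genes with at least 3 such summits. These loci held more summits than most, and the highest of several scores is not independent of their number.

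**Figure D2:**
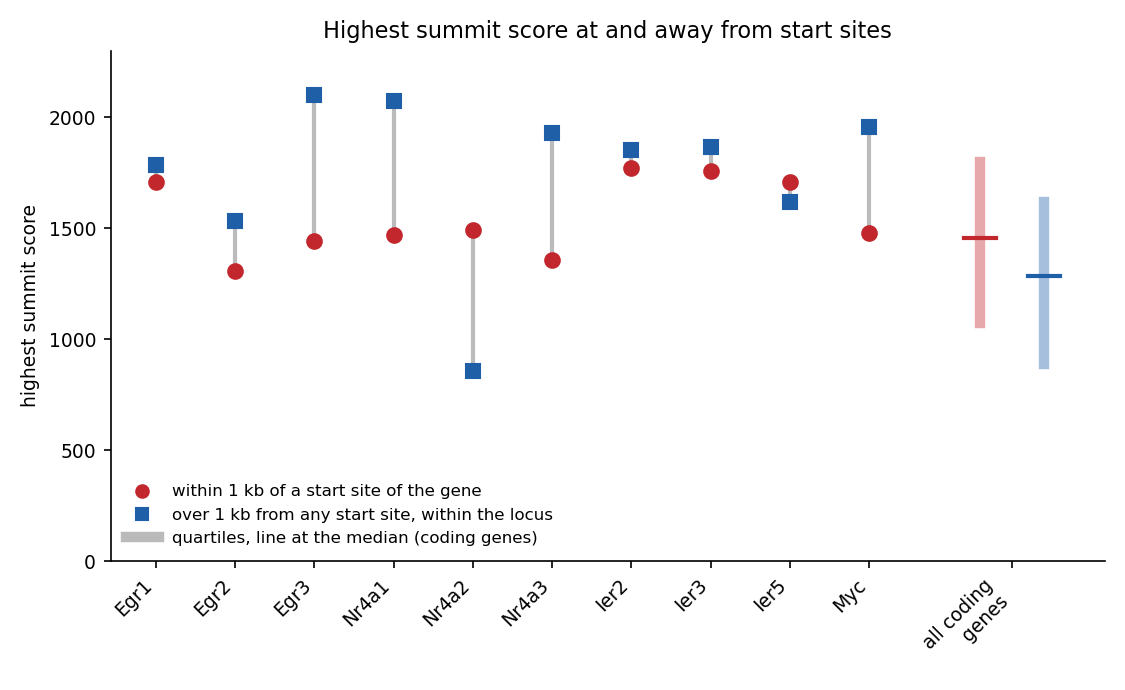
Highest summit score within 1 kb of a start site of each gene (red circles) and over 1 kb from any start site in its locus (blue squares), with the quartiles over protein-coding genes at the right. The blue square is above the red circle at 8 genes. Nr4a2 shows the opposite order, 856 against 1493.

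The EGR factors are early relays of MAP kinase signalling, and their activity is held back by the corepressors Nab1 and Nab2. Egr1 (ENSMUSG00000038418.7, chr18:34859823-34864984, plus strand) had 7 extended regions and 17 summits in its locus. A region of 3401 bp with 4 summits, scored 1708, 1518, 1708 and 476, ran over the start site and the first part of the gene. It also covered a second annotated start site, 1384 bp downstream of the first. The highest score of the locus, 1786, was not there but 3440 bp upstream, in a group of 6 intergenic summits that began 9908 bp before the gene. Downstream followed 23191 bp with no peak and then a second group of 7 summits, led by a score of 1418, at 27717 bp. The summit scored 1518 lay 794 bp after the first start and 590 bp before the second. It carried matches to the EGR site itself, GCGNGGGCG, as did the one scored 476, which also had an NF-kB match.

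Egr2 (ENSMUSG00000037868.15, chr10:67535475-67542188, plus strand) had 6 summits in a single region of 5475 bp over its start sites. The highest, 1308, lay inside the gene between the upstream start sites and the main cluster of start sites 2394 bp further on, and the summit at that cluster scored 1224. The latter summit sat 67 bp before the main start site, inside the CArG box printed above and within 12 bp of a CRE core. A second CArG box lay within 30 bp of the summit scored 968 inside the gene. The highest summit of the locus, 1531 at 30833 bp, was nearer to the start of Ado, a thiol dioxygenase, than to that of Egr2. A group of 4 intergenic summits with scores from 486 to 1025 lay between 41734 and 47819 bp upstream, and 3 of the 4 carried an AP-1 match.

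Egr3 (ENSMUSG00000033730.4, chr14:70077203-70082614, plus strand) differed in layout. None of its 4 annotated start sites was inside a peak. The only start site summit, scored 1443, lay 335 bp upstream in a peak of 148 bp, and its extended region of 1548 bp held no other summit. The strongest elements were far upstream, with 2100 at 11106 bp and 2245 at 20061 bp, the latter beside the start of the noncoding gene Gm33524. The score of 2100 exceeds that of 99.0% of all summits. Of the 20 summits in the locus, 3 had a CArG box within 100 bp: the start site summit, the one scored 2100 and one scored 1394 at 2234 bp upstream. All 3 also had a CRE core. All 5 summits of the 10 loci with a CArG box within 100 bp were at Egr2 and Egr3 (2.62% of summits, against 1.15% of the catalog). Within 200 bp, 8 of the 191 summits had one (4.19% against 2.11%).

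The NR4A receptors bind DNA as monomers or dimers without a known natural ligand, and are among the first genes macrophages induce. Nr4a1 (ENSMUSG00000023034.7, chr15:101254269-101274795, plus strand) has a far upstream start and a main start 12577 bp downstream of it. The upstream start had a summit scored 748 and the main start one scored 1468, 76 bp before it. This summit had CRE cores within 7 and 36 bp, an EGR site within 16 bp and an NF-kB match 73 bp downstream. The highest summit of the locus, 2074, was in the intron between both starts, 4128 bp before the main start, and had none of the 14 motifs searched. A further summit of 2021 was intergenic, 7799 bp before the upstream start, with an EGR site and a CRE core. The 17071 bp after the main start site peak, which include the gene body from there on, held no peak.

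Nr4a2 (ENSMUSG00000026826.13, chr2:57106830-57124003, minus strand) had 6 summits in its whole locus, no other protein-coding start site within it and no peak over the last 49659 bp of its upstream side. The upstream start had a summit of 1493, 206 bp before it and within 10 bp of one of the 4 CRE cores printed above. The inner start, 8965 bp downstream, had a summit of 716 with CRE cores within 26 and 36 bp. Of the 3 summits away from start sites, 2 lay in the intron between the starts and scored 856 each, which is the lowest best score away from start sites among the 10 genes.

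Nr4a3 (ENSMUSG00000028341.9, chr4:48045153-48086447, plus strand) had 3 extended regions and 7 summits, the fewest regions of the 10. The start site summit scored 1357, 47 bp before the start, and had all 4 CRE cores within 52 bp. A peak of 938 bp upstream of it held 3 summits, scored 1236, 1786 and 1929, the nearest of them 1687 bp from the start and with CRE cores within 11 bp to each side. A gap of 28596 bp between peaks followed inside the gene, the longest between neighbouring peaks of the 10 loci, and ended at an intronic summit of 856. The upstream side of the locus held no peak over 47627 bp up to its limit. The 3 NR4A genes together had CRE cores at 5 of their 7 start site summits, against 21.8% of 21749 start site summits of protein-coding genes. They had no match to their own NBRE site, AAAGGTCA, at any summit, and only 1.03% of all summits in the catalog had one.

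**Figure D3:**
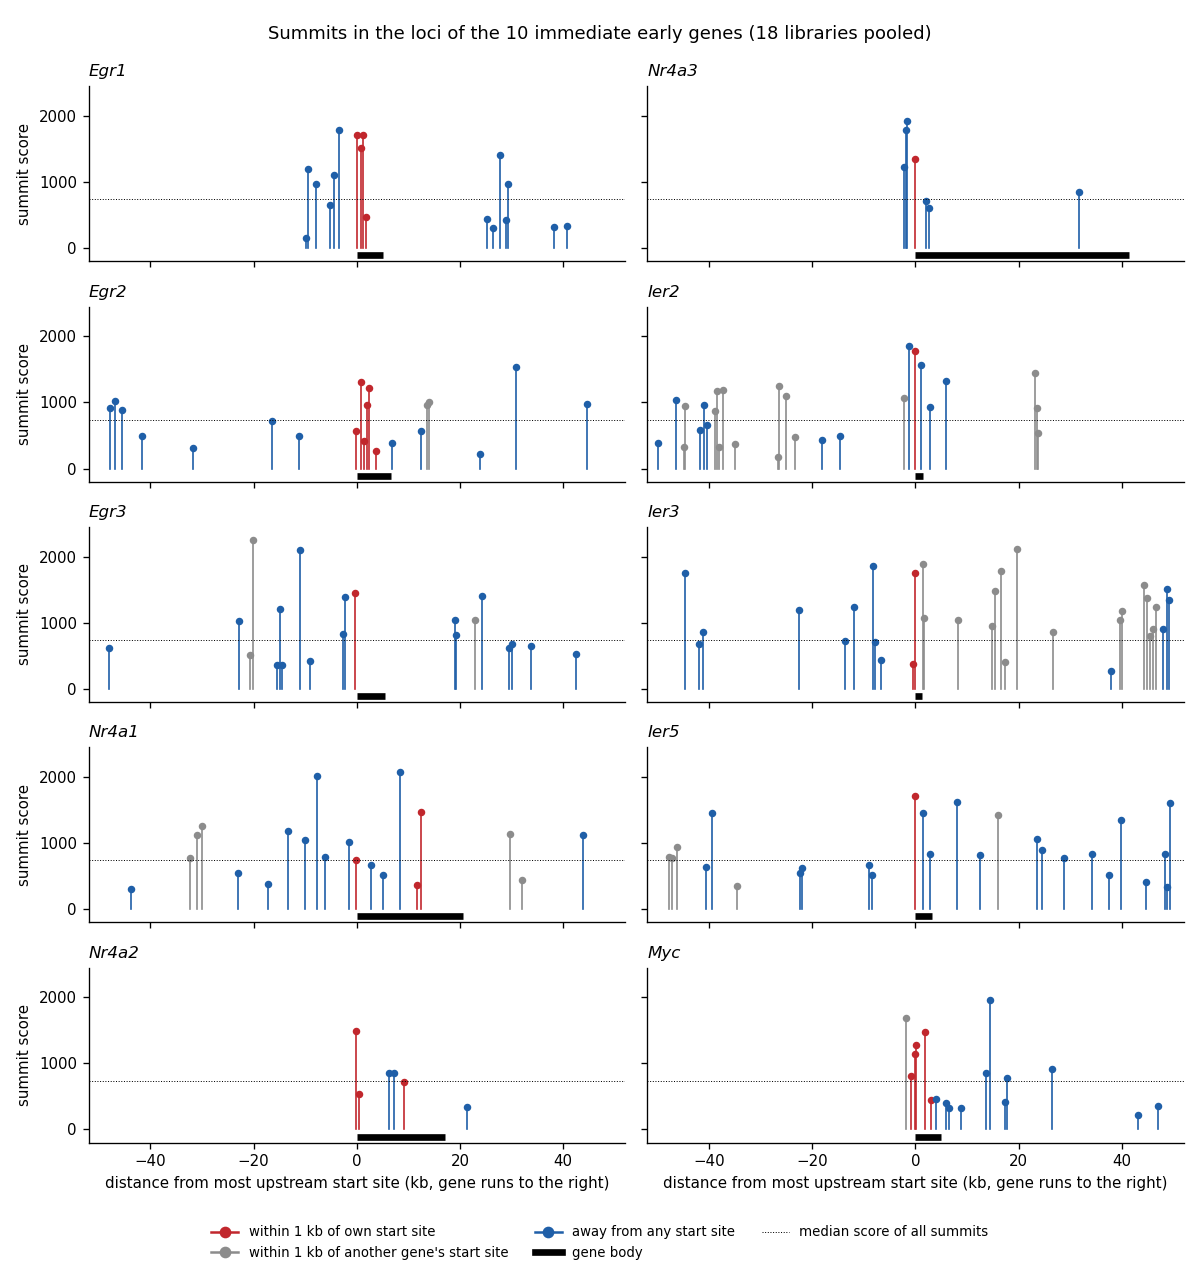
Score of each of the 191 summits (vertical axis) against its distance from the most upstream start site of the gene (horizontal axis, in kb, with the direction of transcription to the right) in the 10 loci. Red marks summits at the gene's own start sites, grey those at start sites of other genes, blue all others, the black bar the gene body and the dotted line the median score of 737. Nr4a2 and Nr4a3 have 6 and 7 summits, while the loci of Ier2 and Ier3 also hold many grey summits of neighbouring genes.

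The IER genes encode short proteins induced by growth factors and stress, and Ier3 is known as an NF-kB target that affects cell survival. Their start site summits had the highest scores of the 10 genes, apart from Egr1, which tied with Ier5. Ier2 (ENSMUSG00000053560.4, chr8:84661331-84662852, minus strand) scored 1773 at 97 bp before the start and was the only gene of the 10 with the full palindrome TGACGTCA at a start site summit, within 59 bp of it. Its region of 6610 bp held 5 summits. One lay in an untranslated exon 1152 bp after the start (1568, with an AP-1 match, TGACTCA), and one 1245 bp upstream had the highest score of the locus (1851) with ETS sites, CCGGAAG, within 16 and 38 bp. Only 6 of the 27 summits in the locus had Ier2 as their nearest protein-coding start, and the locus includes start sites of 5 other protein-coding genes.

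Ier3 (ENSMUSG00000003541.6, chr17:35821684-35822923, plus strand) scored 1760 at 43 bp before the start. The NF-kB site printed above lay within 20 bp of this summit. The gene sits in a dense locus with 31 summits and 5 other protein-coding genes, among them Flot1, whose start site summit of 1890 shared the extended region of Ier3, and Mdc1, whose start site summit of 2114 was the highest of the locus. The best summit away from start sites, 1864, was 8276 bp upstream, with an AP-1 match within 9 bp.

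Ier5 (ENSMUSG00000056708.5, chr1:155096361-155099636, minus strand) scored 1708 at 24 bp before the start. It had the most extended regions of the 10 genes, 16, and 18 of its 26 summits had no nearer protein-coding start. A summit of 1456 inside the transcribed gene, 1544 bp after the start, had 3 NF-kB matches within 55 bp, of which 2 overlapped by all but 1 base. The best summit away from start sites, 1619, was 8112 bp downstream of the start and carried a pair of AP-1 sites within 5 and 83 bp. The elements with AP-1 matches upstream of Ier3 and downstream of Ier5 are shown as 201 bp around the summit, on the strand of the gene, with the AP-1 sites in capitals. Neither overlapped an annotated exon.
Ier3 upstream element, chr17:35813308-35813508, plus strand: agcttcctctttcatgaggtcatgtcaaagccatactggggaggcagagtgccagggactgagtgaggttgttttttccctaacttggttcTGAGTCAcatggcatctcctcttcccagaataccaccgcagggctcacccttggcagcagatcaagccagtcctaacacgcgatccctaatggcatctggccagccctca
Ier5 downstream element, chr1:155091424-155091624, minus strand: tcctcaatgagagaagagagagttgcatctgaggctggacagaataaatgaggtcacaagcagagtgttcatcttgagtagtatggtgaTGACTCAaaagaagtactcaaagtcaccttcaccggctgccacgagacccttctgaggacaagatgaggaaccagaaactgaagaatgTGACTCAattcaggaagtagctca

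Myc (ENSMUSG00000022346.15, chr15:61985391-61990374, plus strand) encodes a growth regulator that acts as a dimer with Max. It had the widest region of the 10 genes, 7519 bp with 7 summits, wider than 99.9% of all extended regions. The 5 start site summits scored 812, 1141, 1284, 1480 and 448 in order along the gene. The 1141 and 1284 summits lay 94 bp before and 157 bp after the most upstream start, and the highest lay further inside, 120 bp after a start site 1643 bp downstream. A summit of 1683 preceded the gene by 1858 bp, beside the start of the noncoding gene Gm37947. The best summit of the locus was intergenic, 14420 bp downstream, with a score of 1955 and none of the 14 motifs. All 17 summits had Myc as the nearest protein-coding start, and 14 of 17 were downstream of its most upstream start site. The remaining upstream side, 47953 bp up to the limit of the locus, held no peak. Myc and Ier3 were the 2 genes without a CRE core at a start site summit.

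In number of elements, the 10 loci had a median of 10.5 extended regions (3 to 16) and 20 summits (6 to 31), against medians of 7 and 10 for protein-coding genes with a start site peak. More regions than that median were found at 7 genes and more summits at 8. Nr4a2 and Nr4a3 were below it on both counts. The 117 summits away from any start site had a median score of 812, against 664 for the 59886 such summits of the catalog. The 27 at the genes' own start sites had a median of 1224, against 990 for all summits at start sites.

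**Figure D4:**
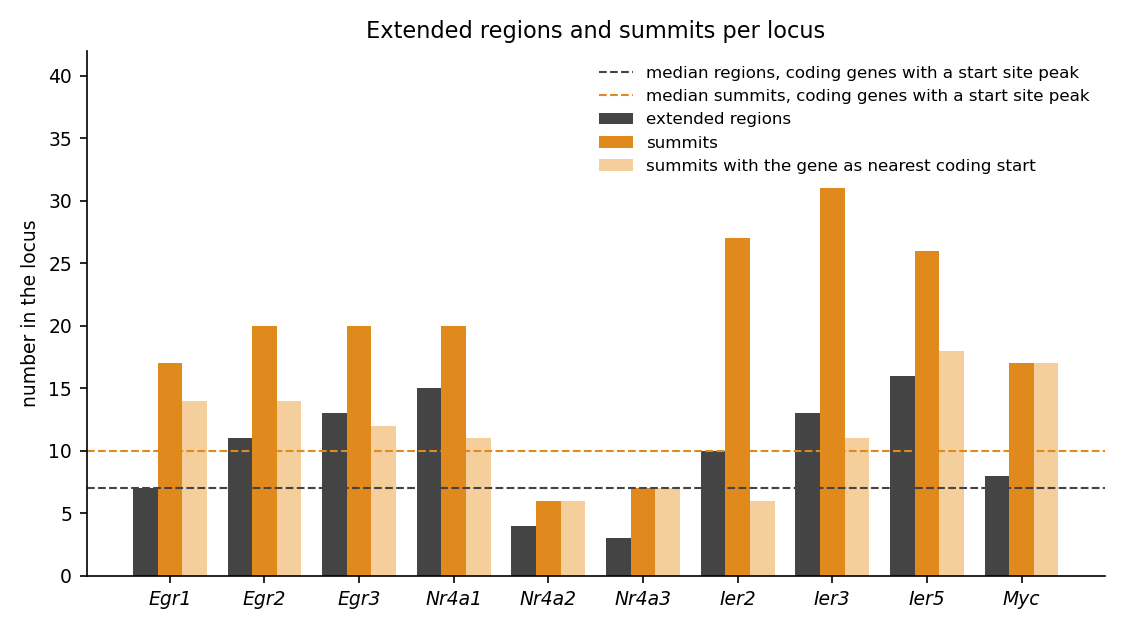
Number of extended regions (dark), summits (orange) and summits with the gene as nearest protein-coding start (pale) in each locus. Dashed lines mark the medians of protein-coding genes with a start site peak, 7 regions and 10 summits. Nr4a2 and Nr4a3 lie below both lines, and in the loci of Ier2 and Ier3 most summits are nearer to another gene.

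A motif was looked for on either strand in the 100 bp to each side of a summit, and the count of genes with a match at a start site summit was set beside the share over the 12321 protein-coding genes. For the sites of the classical immediate early response, the CRE core was present at 8 genes (38.3% of protein-coding genes), the full CRE at Ier2 (4.36%), the CArG box at Egr2 and Egr3 (1.66%) and the ETS site at none (22.4%). NF-kB matches were present at 4 genes, Egr1, Nr4a1, Ier3 and Myc (8.98%). The STAT6 motif, the target of IL-4 signalling, was present at Egr2 and Ier3 (7.59%). A CRE core is part of each full CRE and is counted in both.

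Of the sites that the encoded proteins bind, the EGR site was present at start site summits of Egr1 and Nr4a1 (12.7%), the E-box, CACGTG, at Egr2 and Ier3 (14.3%) and NBRE at none (1.20%). The GC box, GGGCGG, which can overlap the EGR site, was present at 7 genes (69.8%). None of the 10 genes had at a start site summit a match for AP-1 (11.0%), PU.1, GAGGAAGT (8.14%), IRF (4.71%) or RUNX, TGTGGTT (6.85%), which are factors typical of macrophage enhancers. With 10 genes and shares of this size, counts of 0 carry little weight, and these gene counts depend on the number of start site summits per gene.

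Away from start sites, AP-1 matches lay at 24 of the 117 summits, 20.5%, against 19.4% of all such summits of the catalog, and PU.1 matches at 14, 12.0% against 10.7%. The AP-1 summits were most numerous at Egr2, Egr3 and Ier5, with 5 each, and none were seen at Egr1, Nr4a1 or Nr4a3. The CRE core was found at 19 summits, 16.2% against 9.20%, and the GC box at 20, 17.1% against 5.93%. RUNX matches were found at 5, 4.27% against 9.36%. NBRE was found at 0 of the 191 summits, a count that leaves room for a share of at most 1.57% (counting error only), while 1.03% of all summits had one. Summits of 1 locus share their sequence surroundings, so these shares are descriptions.

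**Figure D5:**
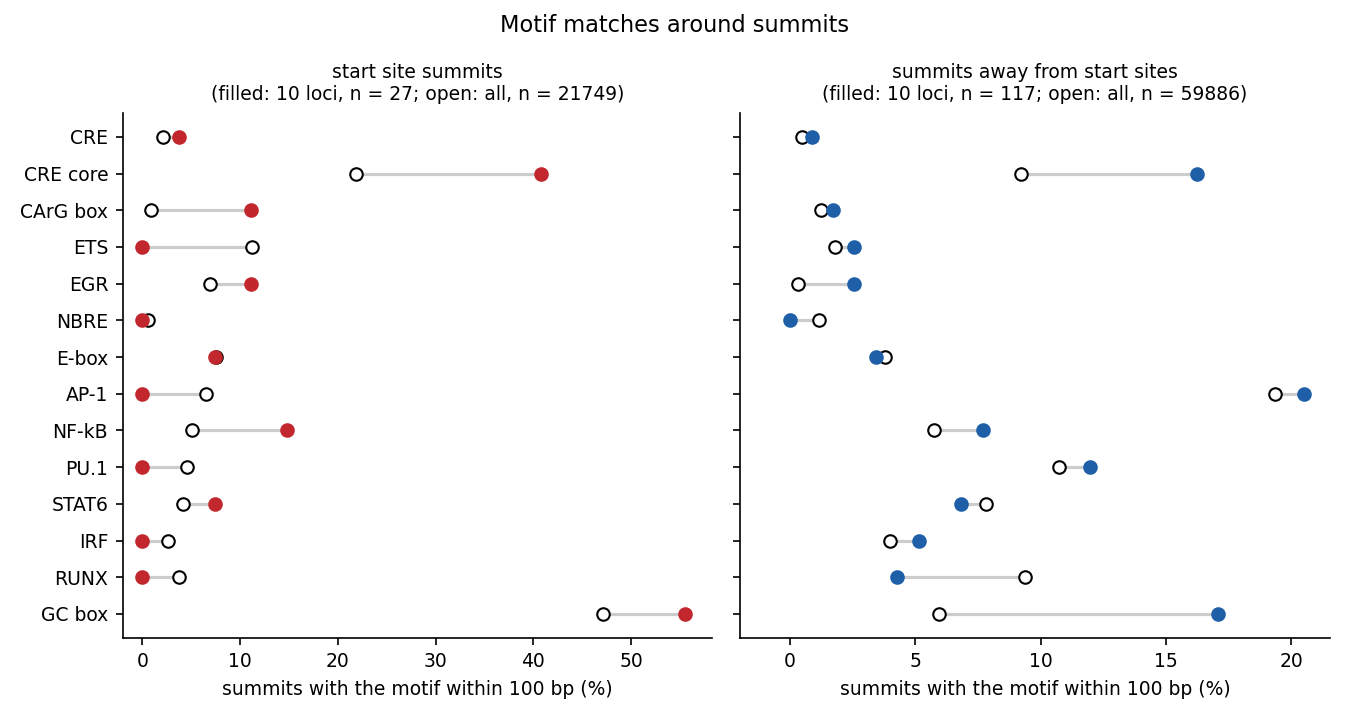
Percentage of summits with a match to each of 14 motifs within 100 bp, at start sites (left, 27 summits of the 10 genes against 21749 of all protein-coding genes) and away from start sites (right, 117 against 59886). Filled points are the 10 loci and open points the whole catalog. At start sites the filled point for the CRE core lies at 40.7% and the open one at 21.8%, and the filled points for AP-1 and PU.1 lie at 0.

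Other immediate early genes were also mostly open at their promoters. Of 30 such genes, 28 had a start site peak, against 56.5% of all protein-coding genes. The median best score was 1844.5, above the 1486.5 of the 10 genes, and the best were Ifrd1 (2362) and Btg2 (2193). Egr4, the remaining EGR factor, had no element at all in its locus, the nearest peak being 60440 bp from its start, and Ccn1, a secreted matrix protein, had no start site peak and 1 region in its locus. The genes for upstream regulators and partners, such as SRF and its cofactors, CREB, the NAB corepressors and the partners of Myc, had a start site peak in 21 of 21 cases, beside the same 56.5%. Mxd1 (2362) and Mrtfa (2297) scored highest. Nab1 and Nab2 scored 1493 and 1734, Srf 2087, Creb1 1929 and Max 2258. The lowest scores were those of the SRF partner Elk3 (505), the Myc relatives Mycl (593) and Mycn (748), and the SRF cofactor Mrtfb (727).

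The labelled cell type was checked on markers. All 10 macrophage genes, Adgre1, Csf1r, Cd68 and Spi1 among them, had a start site peak, with a median best score of 1499. Of the 11 markers of other cell types given here, 6 had one too, a share close to the 56.5% of all protein-coding genes, with scores from 613 to 1721, namely Pax5, Klrb1c, Flt3, Col1a1, Pecam1 and Cdh5, while Cd3e, Siglech, Gata1, Mpo and Epcam had none. A start site peak is not a measure of expression, and what part other cells had in the pooled lists was not tested.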

How the data were processed

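ATAC-seq had been run by the authors on 9 groups of BMDMs in duplicate (18 libraries), with single-end reads of 76 bases. Following their methods, adapters were removed with BBDuk, reads were trimmed with Trimmomatic 0.39 and aligned to mm10 with ShortStack, SAMtools 1.9 was used for filtering, and peaks were called with MACS2 2.2.6 without a local background, with duplicates kept. Peaks that passed a strict q-value limit and overlapped between replicates entered the reference set, so elements below that limit cannot appear in the lists (versions from the submitters' processing notes and the study's methods). Whether reads were moved to the Tn5 insertion point is not given in the sources used here, and a summit can lie beside the position of most insertions, and kept duplicates can raise a peak.

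The deposited files are 3 position lists in mm10, in which the only measurement is the summit score. The authors' scale for this deposited score is not given in the sources used here. There is no column per library, 0 columns belong to other samples, and thus depth and precision per sample are unknown and no test was run.

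Positions, counted from 1, were intersected (at least 1 bp) with GENCODE M21 and motifs were searched in GRCm38.p6, both with Python 3.11.15, NumPy 2.4.6, pysam 0.24.0 and samtools 1.23.1. All entries lay inside the chromosome on 21 of 21 chromosomes. A locus is the gene body and 50000 bp on each side of the most upstream start site, and for genes with long bodies the comparison loci are wider. The routines were tested on simulated data. Motifs with ambiguous letters (CArG box, NF-kB, STAT6, IRF) are given by name.

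The members, gene lists and motifs were chosen with earlier results of these data known, and no score or count here is independent support for them. The text names all 10 genes and, of the other lists, genes with no start site peak and the 2 best scored. Regulators, markers and comparison genes named beyond that were chosen after their values were seen. Alternatives were other windows, loci, start site sets and summit sets. The value of 1 marker of other cell types is not reported here.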

Additional observations from a re-analysis of the deposited data

How the results depend on the processing

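No paired analysis was possible because the lists hold no value per library. All 10 genes kept a start site peak under each of 4 alternatives (window of 500 or 2500 bp, most upstream start site only, peaks at or above the median score). The median best start site score was 1695.5 with a window of 2500 bp (1456 for protein-coding genes) and 1468 with the most upstream start site only (1431). The median number of extended regions per locus was 5 within 20000 bp, 19.5 within 100000 bp and 5.5 for regions at or above the median score. It was 6 for regions nearest to the gene and 19 for reference peaks. Over all protein-coding genes, with or without a start site peak, these medians were lower, at 2, 9, 3, 1 and 6. The main comparison, with genes that have a start site peak, was not repeated in these settings. Any of the 14 motifs was found at 67.0% of summits within 100 bp (63.5% over the catalog), 52.4% within 50 bp (46.6%) and 77.5% within 200 bp (75.8%), and at 70.1% against 70.3% where low-scored summits (below the median) were left out. The shares of the CRE core, CArG box, EGR, NF-kB and GC box were above those of the catalog in all 6 motif settings, and those of NBRE, E-box and RUNX in none, while AP-1 was above it in 1 of 6 and PU.1 in 2 of 6. At 8 genes the best summit away from start sites scored above the best at the gene's own start sites. With a window of 2500 bp this number fell to 5, and the contrast was smaller. The share was then 35.5% of protein-coding genes, and 42.6% of those with at least 3 summits away from start sites. This measure and its alternatives were chosen after seeing the data. Other alternatives for the gene lists stayed within 1.5 times. Depth limits which weak elements reach the lists, and its effect could not be measured.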
